A study of Arabidopsis thaliana with 119 samples.

Results

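The drought response of Tsu-0, a natural accession of Arabidopsis thaliana, was examined across all expressed genes of the rosette. It was chosen by accession and treatment: 6 RNA-seq libraries from plants on a reduced water supply (W-N+) were set against 6 from well-watered plants (W+N+), 12 libraries in a series that holds 107 others, over 5 accessions and 4 treatments. Both groups carry the Tsu-0 genotype, and the labels name no mutation or transgene. All plants grew on peat plugs without added fertiliser, spent 8 days in a short-day chamber and then 23 days on the Phenoscope, a robot that moves and waters single pots, and were taken at an age of 31 days. Both groups were watered with a solution of 5 mM nitrate. Controls received 160.45 ± 7.96 ml of it in all and drought plants 50.85 ± 4.67 ml, with the spread given in the labels. Drought plants thus had 0.317 of the control volume, which carried 254 µmol of nitrate in place of 802 µmol. What else the solution held is not given in the sources used here, so less water cannot be told apart from less of what the water carried.

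Each group held 3 libraries of experiment code P3ID33 (replicates d, e and f) and 3 of code P3ID34 (replicates a, b and c). The sources used here do not say what the codes stand for, nor whether a library held a single plant or a pool, so p-values measure only the spread between these libraries. In whole rosettes, fewer cells of a type and less RNA per cell cannot be told apart.

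Plants short of phosphate exchange membrane phospholipids for sulfolipid and galactolipid, release phosphate from organic compounds with phosphatases, and take up more of it through PHT1 transporters. While phosphate is ample, SPX proteins hold this response back by binding its activator, the transcription factor PHR1. Water deficit acts largely through abscisic acid (ABA), whose PYL receptors block PP2C phosphatases and so free SnRK2 kinases to switch on protective genes. Salicylic acid controls one set of defence genes, and jasmonate with ethylene another.

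Total counts of the 12 libraries ranged from 9892562 (drought replicate a) to 110420763 (drought replicate d), with a median of 17524536. The second deepest library held 32510563 counts, so drought replicate d stood apart by depth. For each library the log2 CPM, less the mean of all Tsu-0 libraries over the 4 treatments, was set against log2 transcript length. The slope is thus relative to the other Tsu-0 libraries. Drought replicate e had the lowest of the 12, -0.284, while the other 11 libraries lay between -0.104 and 0.147. Levels below are in CPM, that is counts scaled to a common library size by the TMM method of edgeR. The 6 mesophyll markers summed to 60000 to 72800 CPM in controls and 54700 to 72000 CPM in drought, and the 9 root markers to at most 0.542 CPM and the 5 seed markers to at most 0.679 CPM in any of the 12. The 11 guard cell markers summed to 84.4 to 105 CPM in controls and 97.5 to 113 CPM in drought. In edgeR and DESeq2 0 genes of the guard cell, trichome, phloem, xylem, meristem, flower, root or mesophyll marker lists were called, and no seed marker could be tested. An unadjusted p below 0.05 was seen in edgeR for 3 guard cell markers and 1 each of trichome, xylem, flower and root. Limma voom called the 1 tested root marker higher (log2 1.87), and a covariate for the length trend called 2 phloem markers and that root marker higher and 1 mesophyll marker lower. Some genes that leaves use have almost no counts in any library of the series, among them MYC2 with 0, AMT1;1 with 12 and F3H with 64, and these are not described.

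Drought changed 1172 of 20025 tested genes in Tsu-0 (5.85%) at an adjusted p below 0.05 in edgeR's quasi-likelihood test. Of these 602 rose (3.01%) and 570 fell (2.85%). Of the genes tested in each list, 19 of 25 phosphate starvation genes and 14 of 29 anthocyanin and flavonoid genes rose. Of 25 salicylic acid and defence genes 7 fell, or 4 without any 1 of 4 libraries, and of 9 ethylene and jasmonate defence genes 6 fell, or 0 without control replicate c. The lists for photosynthesis and cell division held 0 called genes. Most changes were small: 634 of the called genes moved by less than 1.5-fold and the median change among them was 1.47-fold. A change of at least 2-fold was seen in 248, upward in 107 and downward in 141. In 1166 of the 1172 the sign was the same with both experiment codes, which is favoured by calling genes on the libraries of both. With P3ID33 alone 626 genes were called, and with P3ID34 alone 239. Without drought replicate e 718 genes were called, and with a covariate for the length trend 2365.

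**Figure D1:**
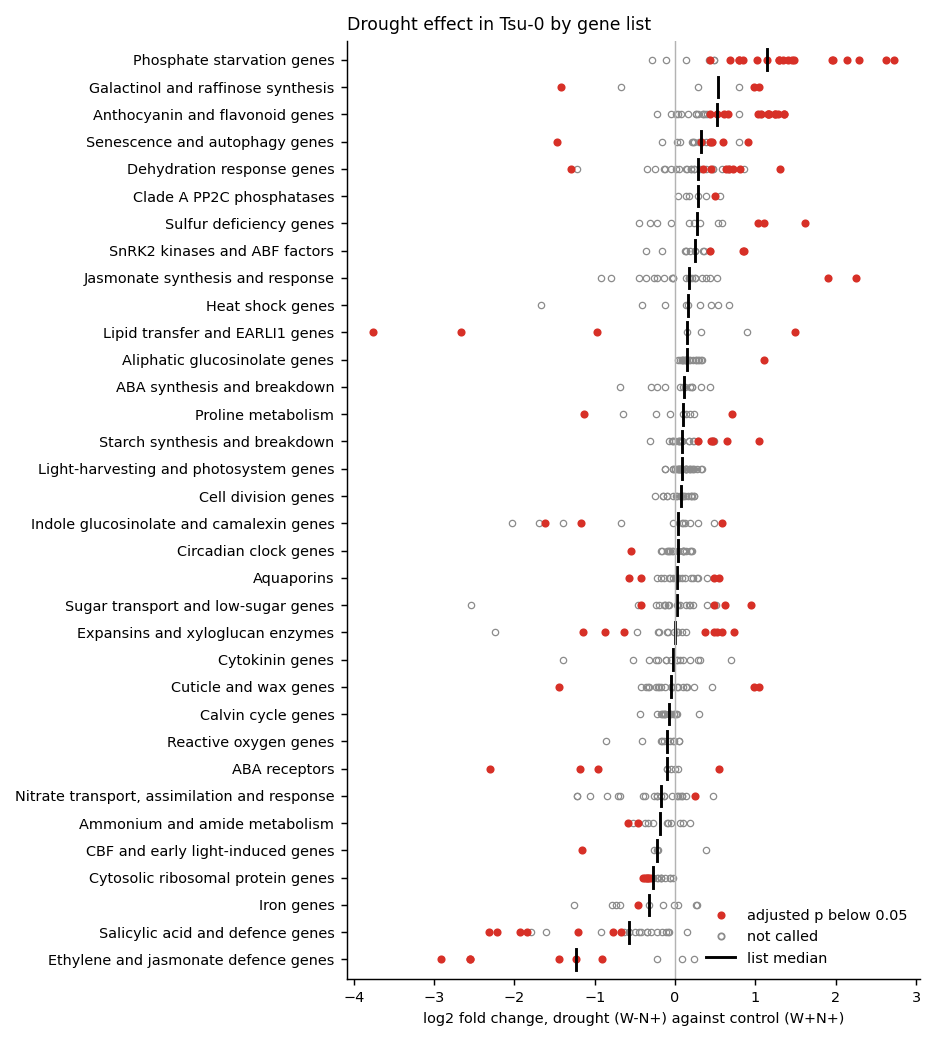
Log2 fold change of drought against control in Tsu-0 (horizontal axis) for each tested gene of 34 lists (rows). Filled points are genes called at an adjusted p below 0.05, open points are genes not called, and vertical ticks are list medians. The phosphate starvation list has the highest median, 1.14, and the ethylene and jasmonate defence list the lowest, -1.24, against 0.01 over all tested genes.

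Of 27 listed phosphate starvation genes 25 could be tested, and 19 of them rose, where 3.01% of all tested genes rose. None fell in edgeR, limma voom or DESeq2, and none had a negative change with an unadjusted p below 0.05. Their median log2 fold change was 1.14, against 0.01 over all genes. Levels of 17 of the 19 did not overlap between drought and control libraries, and the other 2, PHT1;4 and IPS1, were apart within each code. All 6 drought libraries lay above all 6 controls for 1.72% of all tested genes and for 38% of the 602 genes called higher. Drought lay above control within each code for 3.48% of all tested genes and for 65.3% of those called higher. Leaving out any 1 of the 12 libraries left 18 to 20 called. Some members named here and in other lists fall outside the naming rule and were chosen after their values were seen.

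The genes of lipid exchange were among the clearest. SQD2, which makes sulfolipid in the last step of its synthesis, had 121 CPM in its lowest control, a median of 139 and a highest value of 171, and 311, 391 and 520 CPM in drought. All 6 drought libraries lay above all 6 controls. The rise was 2.79-fold (log2 1.48 ± 0.08 SE, n = 6 per group, adjusted p = 9.87e-31). SQD1, which supplies the sulfur-bearing sugar for that step, rose 1.74-fold, from 140 to 173 CPM (median 160) in controls to 211 to 347 CPM (median 278) in drought. MGD2 and MGD3 encode galactolipid synthases that act when phosphate is scarce. MGD2 ranged from 9.49 to 14.1 CPM (median 11.6) in controls and from 25.5 to 39.2 CPM (median 28.3) in drought, a log2 change of 1.4 ± 0.15. MGD3 ranged from 7.30 to 15.6 CPM (median 9.28) in controls and from 15.8 to 50.3 CPM (median 26.4) in drought, a log2 change of 1.45 ± 0.21. The 3 drought libraries of code P3ID34 were the high ones for MGD3, at 34.8 CPM or above, and those of P3ID33 reached 18.1 CPM at most.

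Enzymes that free phosphate from lipids and small molecules rose as well. PLDP2, a phospholipase D that breaks down phospholipids, had 3.22 to 7.85 CPM (median 5.97) in controls and 10.5 to 37.5 CPM (median 22.1) in drought, a 3.89-fold rise. PS2, annotated as inorganic pyrophosphatase 1, had 7.03 to 20.6 CPM (median 11.5) in controls and 31.7 to 84.6 CPM (median 48.7) in drought, a 4.41-fold rise (log2 2.14 ± 0.26, adjusted p = 1.47e-09). SRG3, a glycerophosphodiester phosphodiesterase that acts on the head groups left from phospholipids, rose 3.87-fold, from 9.97 to 33.4 CPM (median 18.1) to 39.9 to 128 CPM (median 65.5). None of these 3 overlapped between the groups. PEPC1, a phosphatase of phosphocholine and phosphoethanolamine, was 6.63-fold higher at low levels, 0.238 to 0.568 CPM in controls and 0.946 to 5.09 CPM in drought. The purple acid phosphatases PAP17 and PAP12 rose 2.46-fold and 2.03-fold without overlap, while PAP10 of the same family did not pass the test (log2 0.14 ± 0.07, adjusted p = 0.205).

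Members that signal or move phosphate followed in part. SPX1, SPX2 and SPX3, whose proteins report the phosphate state to PHR1, rose 2.46-fold, 1.61-fold and 6.20-fold. SPX1 had 36.8 to 125 CPM (median 71.8) in controls and 143 to 207 CPM (median 181) in drought, whereas SPX3 stayed at 0.0608 to 0.322 and 0.578 to 2.04 CPM. PHR1 itself was at log2 -0.11 ± 0.09 (adjusted p = 0.573). PHO1;H1, a relative of the phosphate exporter PHO1, had a median of 12.3 CPM in controls and 31.5 CPM in drought, a log2 change of 1.34 ± 0.21. The uptake transporters PHT1;4 and PHT1;5 rose 1.73-fold and 2.2-fold, and PHF1, which lets such transporters reach the cell surface, rose 1.36-fold. PPCK1, a kinase of the enzyme PEP carboxylase, rose 1.79-fold. IPS1, a non-coding RNA that ties up a phosphate-responsive microRNA, had at most 0.142 CPM in controls and 0.0746 to 0.809 CPM in drought (adjusted p = 0.0104), with an adjusted p of 0.0674 in DESeq2 and of 0.0512 without drought replicate c. Besides PAP10 and PHR1, the members PHO1, PHO2, RNS1 and NPC4 were tested and not called, with PHO2 the nearest at 0.49 ± 0.16 (adjusted p = 0.0551). PHT1;1 and PHT1;2 had too few counts to be tested.

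**Figure D2:**
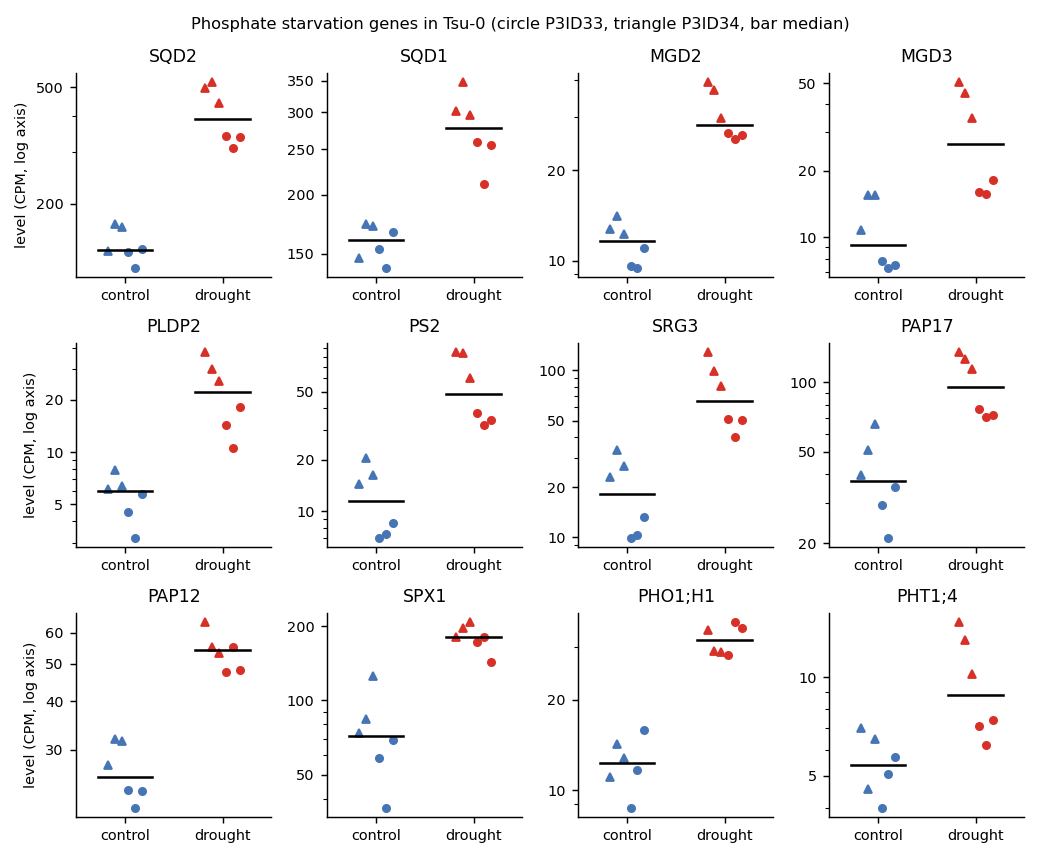
Levels of 12 phosphate starvation genes (CPM, log axis) in the 6 control and 6 drought libraries of Tsu-0, with circles for code P3ID33, triangles for code P3ID34 and bars for group medians. SQD2 lies between 121 and 171 CPM in controls and between 311 and 520 CPM in drought, and the 2 groups overlap for PHT1;4 alone.

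The 2 largest rises among genes that averaged 5 CPM or more were of genes outside the list. AT1G23110, annotated only as a fold protein, went from 1.22 to 3.46 CPM (median 1.77) to 9.18 to 26.6 CPM (median 15.7), an 8.27-fold rise. AT5G03545, annotated as expressed in response to phosphate starvation, went from 1.89 to 4.07 CPM (median 2.92) to 15.5 to 25.9 CPM (median 21.9), a 6.83-fold rise. Neither overlapped between the groups. The effect exceeded the mean of the other accessions by 2.52 ± 0.40 for AT1G23110, which was at 2.93 in Bur-0, 0.84 in Cvi-0, -0.17 in Sha and -1.49 in Col-0.

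Drought in the other accessions was estimated in the same fit. The effect in Tsu-0 differed from the mean effect of Col-0, Bur-0, Cvi-0 and Sha for 36 genes (0.18%), with a more positive effect for 34 (0.17%) and a more negative one for 2 (0.00999%). All 34 also rose in Tsu-0 itself, and the other 2 fell. Of the 36, 9 belong to the phosphate list: PEPC1, PS2, MGD3, MGD2, PLDP2, SQD2, PHT1;4, PAP12 and SQD1. The count was 21 without control replicate e. Of the 12 fits with 1 Tsu-0 library left out, 10 ended the call of PLDP2, 9 that of SQD1 and 4 that of PHT1;4. Their highest adjusted p were 0.187 (without control replicate e), 0.169 (without drought replicate b) and 0.125 (without control replicate b). Averaged over the 47 libraries of the other 4 accessions, 3787 genes were called for drought (18.9%). In single accessions 1236 were called in Col-0 (6.17%), 654 in Bur-0 (3.27%), 325 in Cvi-0 (1.62%) and 344 in Sha (1.72%). Of the 1172 genes called in Tsu-0, 1106 had the same sign in the mean of the others and 772 were also called in it.

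SQD2 had the lowest p-value of this comparison, with a log2 drought effect 1.04 ± 0.09 above the mean of the others (adjusted p = 8.45e-17). Its effect was 1.48 in Tsu-0, 0.83 in Bur-0, 0.44 in Cvi-0, 0.31 in Sha and 0.18 in Col-0. MGD3 differed by 1.64 ± 0.24, with 1.45 in Tsu-0 against 0.24 in Cvi-0, 0.14 in Bur-0, -0.40 in Sha and -0.77 in Col-0. PS2 differed by 2.01 ± 0.31, with 2.14 in Tsu-0, 1.52 in Bur-0, 1.03 in Cvi-0, -0.56 in Sha and -1.47 in Col-0. MGD2 differed by 1.14 ± 0.17. Over the 25 tested phosphate genes the median effect was 1.14 in Tsu-0, 0.72 in Bur-0, 0.44 in Cvi-0, 0.21 in Sha and -0.01 in Col-0. Called rises numbered 19, 12, 9, 3 and 1 in the same order, and called falls were seen in Col-0 alone, where there were 4.

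Single pairs of accessions were compared after these values were seen. Against Col-0 alone, with its control replicate f included, 73 genes differed (0.365%), 17 of them in the phosphate list. Against Sha alone 18 differed (0.0899%), 7 in the list, and against Cvi-0 alone 20 (0.0999%), 2 in the list. Against Bur-0 alone 2 genes differed (0.00999%): SQD2, with an effect 0.65 ± 0.11 higher in Tsu-0 (adjusted p = 0.00135), and GRP3S. For the other phosphate genes no difference from Bur-0 passed the test, which does not show that the 2 accessions respond alike.

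**Figure D3:**
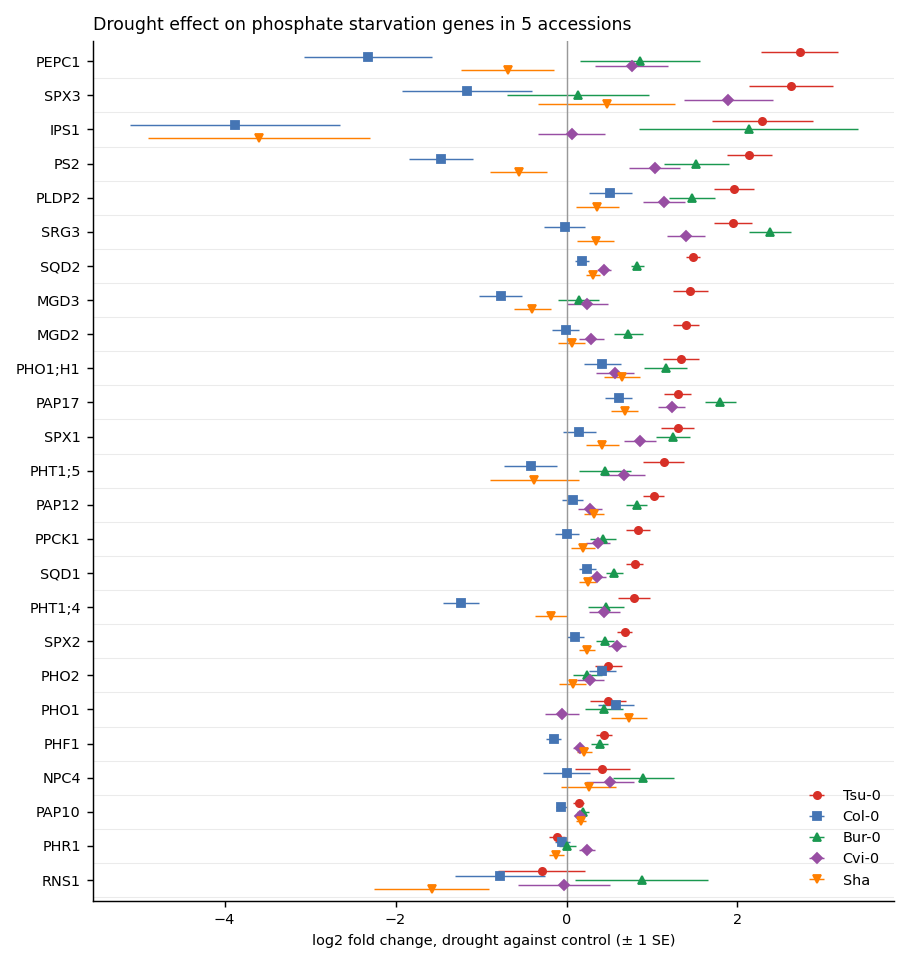
Log2 fold change of drought against control in 5 accessions for the 25 tested phosphate starvation genes (rows), ordered by the effect in Tsu-0. Points are estimates and bars are ± 1 SE. Tsu-0 lies to the right of Col-0 for the lipid genes SQD2 (1.48 against 0.18), MGD2 (1.4 against -0.01) and MGD3 (1.45 against -0.77). The Col-0 effects include control replicate f, whose part was not tested.

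The levels behind these effects already differed between accessions in controls. One set of gene models served for every accession, and the part of sequence differences in these levels was not tested. SQD2 was at 146 ± 19.2 CPM (SD, n = 6) in Tsu-0 controls, 70.8 ± 6.21 in Col-0, 106 ± 7.0 in Bur-0 (n = 5), 108 ± 9.22 in Cvi-0 and 98.3 ± 7.34 in Sha. Each Tsu-0 control was above each control of the other 4, whose highest value was 116 CPM. PS2 averaged 12.4 ± 5.6 CPM in Tsu-0 controls and from 0.752 CPM (Bur-0) to 2.49 CPM (Sha) elsewhere. MGD2 averaged 11.6 ± 1.85 CPM in Tsu-0 controls and from 4.0 CPM (Bur-0) to 6.76 CPM (Cvi-0) elsewhere. For these 3 genes the Tsu-0 mean was the highest of the 5 accessions both without and with drought. Control levels were not compared by a test.

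**Figure D4:**
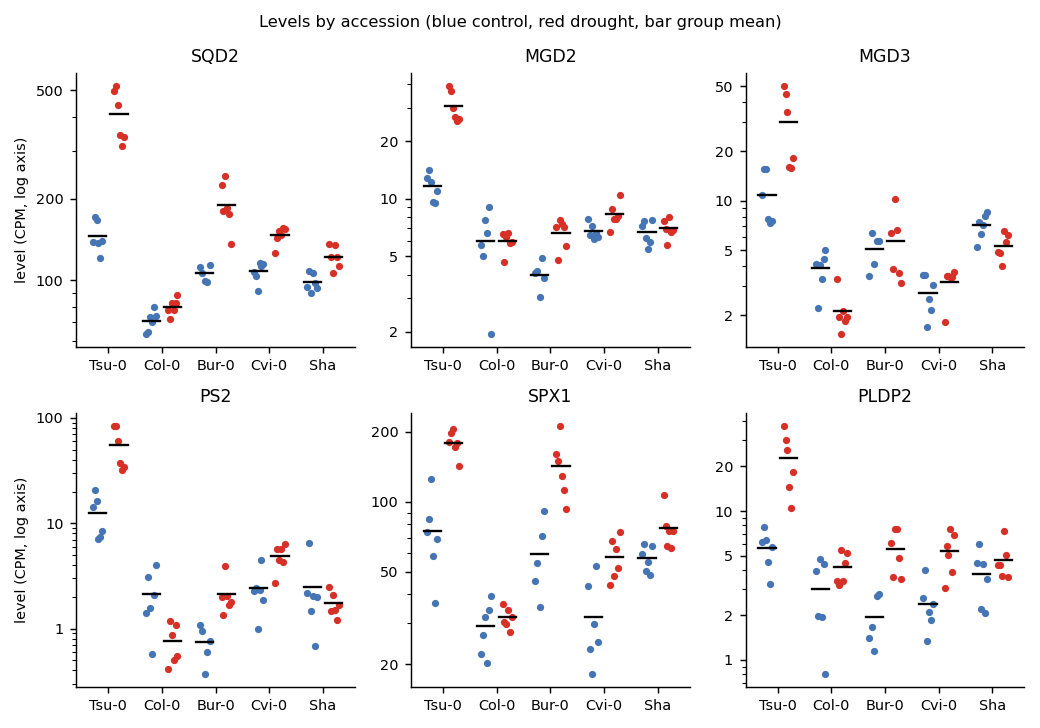
Levels of SQD2, MGD2, MGD3, PS2, SPX1 and PLDP2 (CPM, log axis) in each control and drought library of the 5 accessions, with bars for group means. The Tsu-0 drought libraries have the highest mean in each panel, and for SQD2 they run from 311 to 520 CPM, where Bur-0 drought runs from 136 to 243 CPM.

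The other 27 of the 36 genes belong to no single list, and the grouping here was chosen after they were called. RNS2, a ribonuclease, rose 1.24-fold in Tsu-0, PPa4, annotated as a pyrophosphorylase, 1.39-fold, and PFK7, a phosphofructokinase of glycolysis, 1.49-fold. The purple acid phosphatase PAP14 (1.41 ± 0.41 in Tsu-0, -4.03 ± 0.94 in Col-0) was at 2.85 CPM or less in all 12 libraries, and its rise in Tsu-0 was not called by DESeq2 (adjusted p = 0.232) or without drought replicate b (0.0734). AT1G67600, of an acid phosphatase family, rose 4.07-fold and AT1G08310, of the α/β-hydrolase family, 3.85-fold, both at 7.13 CPM or less. ACBP3, which binds acyl-CoA, rose 1.98-fold, and AT4G33770, of an inositol phosphate kinase family, 1.66-fold. AT5G20790, with no annotated function, rose 4.16-fold.

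Others of the 27 act elsewhere. FAP2, of the chalcone isomerase family, exceeded the others by 1.44 ± 0.23, and the flavonol glycosyltransferase UGT78D1 by 0.51 ± 0.12. GPX6, a glutathione peroxidase, rose 1.51-fold in Tsu-0, the riboflavin kinase gene FMN/FHY 1.56-fold, and GGCT2;1, which breaks down glutathione, 2.04-fold. CRF8, a cytokinin response factor, rose 1.97-fold, AT4G01390 2.08-fold, AT2G17280 1.63-fold and AT1G70900 1.58-fold. Of the genes named here, 8 lost the call of their difference from the others in some of the 12 fits with 1 library left out. It was lost in 10 fits for CRF8, 9 for UGT78D1, 7 for PPa4 and AT1G70900 and 6 for AT2G17280. It was lost in 4 for RNS2 and 3 for GGCT2;1 and AT4G33770. The highest adjusted p was 0.16, for CRF8 without control replicate e. For 6 more genes 3 to 6 of the 12 fits ended the call, and the adjusted p was highest without drought replicate e. It was then 0.222 for CHIL, 0.702 for AT4G08910, 0.844 for AT5G24890, 0.511 for the calcium sensor CBL2, 0.778 for PYR6 and 0.312 for AT1G07970, one of the 2 with a more negative effect.

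GRP3S, the short form of a glycine-rich protein, was the other of these 2 and had the largest fall among genes that averaged 5 CPM or more. It dropped from 6.72 to 20 CPM (median 14.6) to 1.05 to 3.16 CPM (median 1.7), a log2 change of -2.93 ± 0.26 with no overlap. Its effect was between -1.02 and -1.29 in the other 4 accessions, so that Tsu-0 was -1.78 ± 0.28 from their mean (adjusted p = 2.42e-05). The family has close copies, among which counts are uncertain.

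Nitrogen deficiency (W+N-) and combined stress (W-N-) in Tsu-0 were each set against the same 6 controls, so their values are only placed side by side. Nitrogen-deficient plants received 161.93 ml at 0.5 mM nitrate and plants under combined stress 50.70 ml at 1.5 mM. Nitrogen deficiency changed 10180 genes (50.8%) and combined stress 7518 (37.5%). Of the 25 phosphate genes 4 rose and 12 fell in nitrogen deficiency, with a median of -0.45, and 3 rose and 16 fell in combined stress, with a median of -0.66. SRG3 was at 1.95 ± 0.22 in drought, -4.49 in nitrogen deficiency and -3.86 in combined stress. SQD2 was at 1.48, -0.37 and -0.39 in the same order, AT1G23110 at 3.05, -3.32 and -3.65, and MGD3 at 1.45, 1.29 and 0.47.

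Sulfur deficiency genes included 3 that rose of 12 tested, where 3.01% of all tested genes rose, with a list median of 0.27. LSU1, a marker of low sulfur, rose 3.07-fold from 1.97 to 3.00 CPM (median 2.24) to 4.91 to 12.1 CPM (median 6.91). SDI1, which restrains glucosinolate synthesis when sulfur is short, rose 2.15-fold (adjusted p = 0.0134, and 0.0590 without drought replicate a), and GGCT2;1 was the third. None of the 3 overlapped between the groups. The other 9 tested members were not called.

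Anthocyanin and flavonoid genes rose in 14 of 29 tested cases, where 3.01% of all tested genes rose, with a list median of 0.52. None fell in edgeR, limma voom or DESeq2, and none had a negative change with an unadjusted p below 0.05. DFR, which starts the branch that leads to the pigment, ranged from 24.5 to 78.9 CPM (median 43.3) in controls and from 72.3 to 207 CPM (median 126) in drought, a 2.57-fold rise (log2 1.36 ± 0.20, adjusted p = 2.28e-07). The groups overlapped over both codes but not within one: code P3ID33 had 36.0 to 78.9 against 169 to 207 CPM and code P3ID34 24.5 to 50.5 against 72.3 to 84.0 CPM. The same held for LDOX, the next enzyme (1.28 ± 0.18), and for F3'H, which adds a hydroxyl group to the precursors (1.35 ± 0.18). In all, 10 of the 14 overlapped over both codes and were apart within each, and the other 4 did not overlap. The glycosyltransferases UF3GT and AT4G14090 rose by 1.25 ± 0.18 and 1.07 ± 0.19. With the P3ID34 libraries alone 6 of the list were called.

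Of the regulators in the list PAP1 and TT8 were called, and the other MYB, bHLH and WD40 members were not. PAP1, here a MYB activator of anthocyanin synthesis and no phosphatase, rose from 19.9 to 29.0 CPM (median 24.7) to 46.0 to 66.1 CPM (median 51.5), and its partner TT8 rose 2.25-fold, both without overlap. Of the early enzymes CHS rose by 0.44 ± 0.14 and CHI by 0.66 ± 0.19, with adjusted p of 0.163 without drought replicate d and 0.0618 without drought replicate e. The call of CHS ended in 6 of the 12 fits with 1 library left out, and that of CHI in 1. CHIL, a relative of CHI that aids flavonoid synthesis, had 20.9 to 37.9 CPM (median 25.7) in controls and 32.8 to 150 CPM (median 56.4) in drought, where replicate e was the highest. The list had a median of 2.48 in nitrogen deficiency and 1.89 in combined stress, against the same controls. For drought in the mean of the other accessions 11 members were called higher and 0 lower, with a median of 0.16. Called rises numbered 10 in Col-0, 9 in Bur-0, 1 in Cvi-0 and 8 in Sha.

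**Figure D5:**
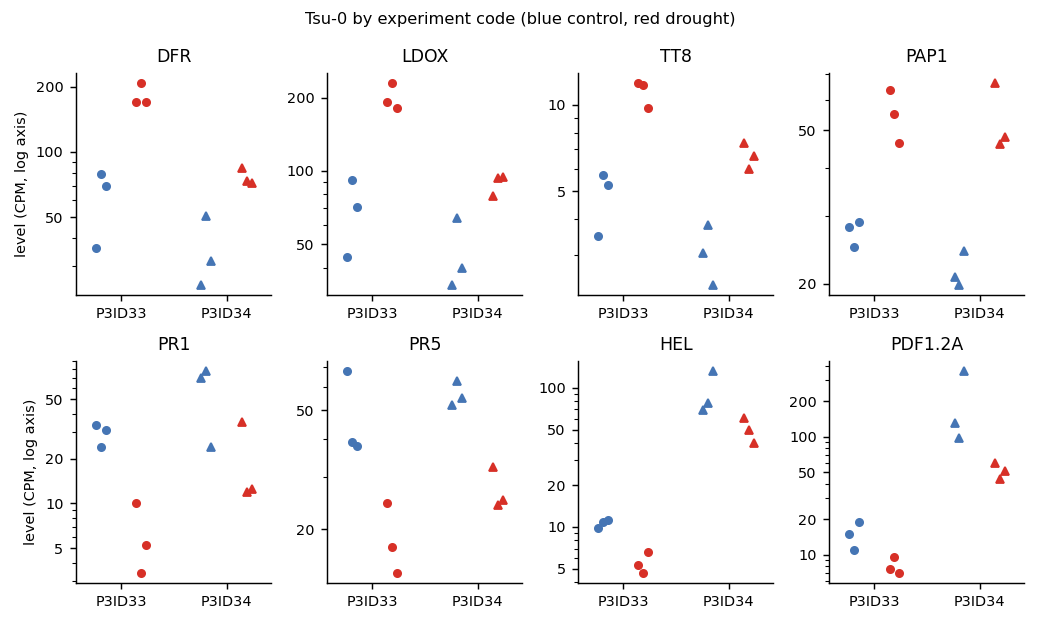
Levels of 8 anthocyanin and defence genes (CPM, log axis) in the Tsu-0 control and drought libraries, split by experiment code. DFR lies higher in drought within each code, HEL lies lower in drought within each code, and the codes differ in level: HEL is at 9.90 to 11.2 CPM in P3ID33 controls and 69.0 to 131 CPM in P3ID34 controls.

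Of 25 salicylic acid and defence genes 7 fell, where 2.85% of all tested genes fell, with a list median of -0.57. None rose in edgeR, limma voom or DESeq2, and none had a positive change with an unadjusted p below 0.05. PR5, a thaumatin-like defence protein, dropped from 38.0 to 67.5 CPM (median 53.6) to 14.3 to 32.3 CPM (median 24.2), a log2 change of -1.21 ± 0.29 without overlap. PR1, the classical marker of this pathway, had 23.8 to 77.2 CPM (median 32.5) in controls and 3.43 to 35.0 CPM (median 11.0) in drought, a log2 change of -1.84 ± 0.54 (adjusted p = 0.0235, and 0.0760 without drought replicate e). Its call ended in 5 of the 12 fits with 1 library left out. Its groups overlapped in code P3ID34 (23.8 to 77.2 against 12 to 35.0 CPM) and not in P3ID33. BG3, a glucanase, was at -1.93 ± 0.45, and WRKY62, a transcription factor, and FRK1, a receptor-like kinase, fell by 2.32 and 2.22 on the log2 scale from levels of 2.79 CPM or less. ICS1, which makes salicylic acid (-0.09 ± 0.11), and NPR1, which senses it (-0.07 ± 0.08), were not called. The number called was 4 without control replicate b or without drought replicate b, c or e, and 0 with the P3ID34 libraries alone. In the mean of the other accessions 14 members were called lower and 1 higher, with a median of -0.46. Called falls numbered 14 in Col-0, 5 in Bur-0 and 0 in Cvi-0 and in Sha.

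Of 9 ethylene and jasmonate defence genes 6 fell, where 2.85% of all tested genes fell, with a median of -1.24. The result rested on control replicate c: without it 0 were called. In the mean of the other accessions 5 members were called lower and 0 higher, with a median of -1.05. HEL, a chitin-binding defence protein, was at 9.90 to 11.2 CPM in P3ID33 controls and 4.70 to 6.66 CPM in P3ID33 drought, and at 69.0 to 131 against 40.2 to 60.4 CPM in P3ID34. The groups were apart within each code, with a log2 change of -0.91 ± 0.25 (adjusted p = 0.0138, and 0.121 without control replicate c). The activator ORA59 was apart in the same way (-1.24 ± 0.38), with an adjusted p of 0.0894 without drought replicate d. Its call ended in 8 of the 12 fits with 1 library left out. The defensins PDF1.2A (-1.45 ± 0.45), PDF1.2b, PDF1.2c and PDF1.3 (-2.55 to -2.92) are near-identical copies whose counts cannot be assigned with certainty. PDF1.2c had 45.9 to 250 CPM in P3ID34 controls and at most 2.57 CPM in P3ID33 controls, and control replicate c held the 250 CPM. EARLI1, a lipid-transfer family protein, fell by 2.67 on the log2 scale from 2.12 to 22.3 CPM (median 7.22) to 0.35 to 2.38 CPM (median 1.53), apart within each code. AT4G12490, of the same family, fell by 3.76 from levels of 4.32 CPM or less.

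The jasmonate-responsive storage proteins went the other way. VSP2 rose from 24 to 62.9 CPM (median 31.5) to 97.3 to 284 CPM (median 179), a 4.74-fold rise without overlap (adjusted p = 0.00119), and VSP1 3.76-fold (adjusted p = 0.0206, and 0.0647 without drought replicate d). The 2 are close copies among which counts are uncertain. They were the called genes among 23 jasmonate genes tested, where 5.85% of all tested genes were called, with a list median of 0.17. LTP4, a lipid transfer protein with LTP3 as its close copy, rose by 1.49 ± 0.43, and LTP3 was at 0.89 ± 0.30 (adjusted p = 0.0602). For LTP4 the adjusted p was 0.0711 without control replicate b.

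Of 30 dehydration genes 7 rose and 1 fell, against 3.01% and 2.85% of all tested genes, with a median of 0.28. RD20, a calcium-binding protein of oil bodies that responds to drought, had 27.1 to 54.6 CPM (median 43.2) in controls and 66.7 to 161 CPM (median 116) in drought, a 2.49-fold rise without overlap (adjusted p = 6.28e-08). COR15A, which protects chloroplast membranes, rose by 0.81 ± 0.23, also without overlap. The dehydrin RAB18 rose by 0.67 ± 0.20 and KIN2 by 0.72 ± 0.21, with adjusted p of 0.07 without control replicate b and 0.196 without drought replicate e. The call of RAB18 ended in 6 of the 12 fits with 1 library left out, and that of KIN2 in 2. RD29A was at 0.59 ± 0.23 (adjusted p = 0.129) and RD29B at -0.25 ± 0.44, and neither was called. ERD6, a sugar transporter, was the member that fell, by 1.29 on the log2 scale, from 30.0 to 84.4 CPM (median 54.7) to 13.0 to 37.3 CPM (median 20.8), apart within each code. The list median was 0.30 in Bur-0, 0.24 in Cvi-0, 0.06 in Sha and -0.01 in Col-0. In the mean of these 4 accessions 8 members were called higher and 1 lower.

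In the ABA pathway 4 of 9 receptor genes changed, where 5.85% of all tested genes were called. PYL4 dropped from 33 to 51.9 CPM (median 42.5) to 17 to 26.0 CPM (median 21.8) and PYL6 from 0.604 to 2.55 CPM (median 1.14) to 0.0956 to 0.543 CPM (median 0.345), both without overlap. PYL5 fell by 1.19 on the log2 scale, and PYL9 rose by 0.55 ± 0.14. Among the PP2C phosphatases ABI2 rose by 0.50 ± 0.13, the single call of 7. The transcription factor ABF3 (0.43 ± 0.11) and the kinase SNRK2.7 (0.86 ± 0.25) were among 3 of 14 SnRK2 and ABF genes that rose, SNRK2.7 with an adjusted p of 0.0804 without control replicate b. Of 12 genes of ABA synthesis and breakdown 0 were called by edgeR, limma voom or DESeq2, and 0 had an unadjusted p below 0.05. With the length covariate 0 were called, but 4 had an unadjusted p below 0.05, all of them higher. In the mean of the other accessions 4 were called higher and 0 lower. NCED3, which controls the first committed step of synthesis, was at 0.12 ± 0.19.

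Proline genes changed in synthesis and in breakdown, with 1 called gene in each. P5CS1, the rate-limiting enzyme of proline synthesis, rose from 223 to 352 CPM (median 284) to 383 to 502 CPM (median 476). ERD5, the proline dehydrogenase that removes proline, dropped from 4.08 to 7.90 CPM (median 5.03) to 2.16 to 3.27 CPM (median 2.33). Neither overlapped, and they were the 2 called genes of 9, where 5.85% of all tested genes were called. GOLS2 and GOLS3, which make galactinol for raffinose, rose by 1.05 ± 0.24 and 0.98 ± 0.19 without overlap, and DIN10, of the raffinose synthase family, fell by 1.42 on the log2 scale, 3 calls among 6 genes.

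The lists of glucosinolate genes, which make sulfur-bearing defence compounds of the mustard family, held 1 called of 21 aliphatic genes and 3 called of 14 indole and camalexin genes, where 5.85% of all tested genes were called, with medians of 0.15 and 0.04. The 4 calls, of FMOGS-OX2, MYB34, CYP81F2 and CYP71A12, ended in 8, 3, 8 and 4 of the 12 fits with 1 library left out. The adjusted p reached up to 0.16, for FMOGS-OX2 without control replicate c. All 21 aliphatic genes had a positive sign, as had 10442 of all 20025 tested genes, and 7 of the 21 had an unadjusted p below 0.05 in edgeR. With the length covariate 20 were positive and 6 were called higher. In the mean of the other accessions 18 were called higher and 0 lower.

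Against 3.01% of all tested genes, 5 of 27 starch genes rose. They included the ADP-glucose pyrophosphorylase subunit APL4 (0.65 ± 0.17), without overlap, the branching enzyme SBE2.1 (0.47 ± 0.12) and the β-amylase BAM5 (1.05 ± 0.31), which had an adjusted p of 0.0652 without control replicate d. Of 22 sugar genes 3 rose and 1 fell, with the transporter SWEET4 at 0.94 ± 0.16 and without overlap. In the nitrate list 1 gene of 23 was called, where 5.85% of all tested genes were called. In limma voom and with the length covariate 2 of its genes were called higher and 2 lower, and in DESeq2 2 higher and 1 lower. The nitrate reductase NIA1 was at 0.08 ± 0.25 in drought and -2.92 in nitrogen deficiency, and the transporter NRT2.1 at -0.85 ± 0.38 (adjusted p = 0.193). The ammonium transporter AMT2 fell by 0.59 on the log2 scale, 1 of 2 calls among 12 ammonium genes.

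Growth genes showed both directions. Of 20 expansins and xyloglucan enzymes 5 rose, all expansins, and 3 fell, all xyloglucan enzymes. Over all tested genes 5.85% were called. EXPA10, which loosens cell walls, rose from 32.7 to 39.0 CPM (median 35.3) to 40.9 to 57.6 CPM (median 51.3) without overlap, and EXPB3 rose by 0.73 ± 0.16. XTH24 dropped from 171 to 240 CPM (median 181) to 97.5 to 160 CPM (median 126), and XTH4 was at -0.87 ± 0.16. All 19 cytosolic ribosomal protein genes had a negative sign and 5 were called, at -0.31 to -0.40, with a list median of -0.28. Of all 20025 tested genes 10442 had a positive sign and 2.85% were called lower. The sign of the 19 was negative under RLE size factors, without organelle genes, with the length covariate, in limma voom and in DESeq2 too, and 15 were called with the length covariate. In the mean of the other accessions 16 of the 19 were called lower, with a median of -0.24.

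Of 19 cell division genes, 33 light-harvesting and photosystem genes and 18 Calvin cycle genes 0 were called by edgeR, limma voom or DESeq2, with medians of 0.07, 0.08 and -0.08. Unadjusted p-values below 0.05 numbered 0, 6 and 3. With the length covariate 1 photosystem gene and 3 Calvin cycle genes were called lower, and the photosystem median was -0.02. The lists of 16 cytokinin, 9 heat shock and 10 reactive oxygen genes likewise held 0 called genes in the 3 tools, with 1, 3 and 1 unadjusted p-values below 0.05. With 5.85% of all tested genes called, 0 calls in lists this short say little about their members.

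Water channels and the cuticle changed in single genes. PIP2;5 rose by 0.55 ± 0.12 and PIP1;5 fell by 0.42 on the log2 scale, 2 of 4 calls among 22 aquaporins. In wax synthesis CYP96A15 (1.05 ± 0.26), which makes secondary alcohols and ketones, and the wax ester synthase WSD1 (0.98 ± 0.20) rose, while CER4, which makes primary alcohols, dropped from 3.59 to 6.20 CPM (median 5.53) to 1.37 to 2.12 CPM (median 1.86). These are the 3 calls among 22 genes. Over all tested genes 5.85% were called.

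Among 19 genes of senescence and autophagy 5 were called higher and 1 lower, against 3.01% and 2.85% of all tested genes, with a median of 0.32. ATG8F, a protein that decorates autophagosomes, rose from 51.5 to 59.6 CPM (median 54.6) to 68.4 to 80.9 CPM (median 76.7) without overlap. Its relative ATG8G rose by 0.60 ± 0.18, with an adjusted p of 0.0753 without drought replicate e. Among the 19 clock genes LHY was the single call, where 5.85% of all tested genes were called. LHY was at -0.55 ± 0.13, and its level differed between codes, at 43.7 to 53.6 CPM in P3ID33 controls and 18.3 to 23.5 CPM in P3ID34 controls. The early light-induced gene ELIP2 fell by 1.16 on the log2 scale, and OPT3, a transporter of iron homeostasis, by 0.46.

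Genes outside the lists filled the rest of the largest changes. NUDT24, a nudix hydrolase, rose 3.38-fold, from 18.1 to 24.9 CPM (median 22.2) to 60.5 to 84.1 CPM (median 73.3), and was at 4.59 in nitrogen deficiency and 4.72 in combined stress on the log2 scale. The formin FH3, which nucleates actin filaments, rose 2.7-fold with overlap, and the metallophosphoesterase AT4G23000 rose by 1.50 ± 0.19 without it. PCR1, annotated as a cadmium resistance protein, dropped from 52.9 to 81.9 CPM (median 59.4) to 9.11 to 29.7 CPM (median 17.5), a log2 change of -1.80 ± 0.41. PATL2, a lipid-binding patellin, dropped from 30.3 to 61.1 CPM (median 35.1) to 11.6 to 18.8 CPM (median 13.9), a log2 change of -1.50 ± 0.19. The cell wall genes EXT4 and EXLA1 were at -1.86 ± 0.38 and -1.78 ± 0.41, and the transcription factor WRKY18 and the pathogen-responsive PCC1 at -1.51 ± 0.31 and -1.46 ± 0.38. AT3G15356, a lectin, and AT4G16260, a glycosyl hydrolase, fell by 1.56 and 1.68 on the log2 scale, with adjusted p of 0.0836 and 0.175 without control replicate c.

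The drought effect was also compared between the codes. No gene differed between P3ID33 and P3ID34 at an adjusted p below 0.05 in edgeR (0%), the only tool run for it, and 734 of 20025 had an unadjusted p below 0.05. The lowest p-value was that of SDH2-2, a subunit of succinate dehydrogenase, with effects of 0.85 and -0.12 (adjusted p = 0.690). Its 41.7 CPM in drought replicate e stood above the 15.1 to 19.1 CPM of the other 5 drought libraries. AT5G35480, of unknown function, had 555 CPM in the same library and at most 109 CPM in the other 11. Without that library the drought effect of either gene was not called (adjusted p = 0.717 and 0.981).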

How the data were processed

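RNA of Arabidopsis rosettes had been sequenced from TruSeq Stranded mRNA libraries, per the labels' protocols. Reads were trimmed with Trimmomatic 0.36 and aligned with HISAT2, per the submitters' processing notes. The sources used here do not name the counting tool, its strand setting or the genome build, so overlapping and antisense genes cannot be told apart. The authors deposited raw counts for 119 libraries. The table lists 32833 genes, and 4657 of these genes have no count in any library. Symbols came from the RefSeq annotation, where 32548 IDs matched. No pair of libraries within the Tsu-0 control or drought group agreed within sampling noise (lowest chi-square per gene 5.22), and other pairs were not compared.

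Genes that passed edgeR's filterByExpr (20025) were fitted over all 119 libraries with edgeR 4.0.16 in R 4.3.3 by the quasi-likelihood test. The fit had TMM normalisation, a term for each of the 20 groups and a term for the experiment code, and all groups shared 1 estimate of the spread. P-values were adjusted by Benjamini-Hochberg over all tested genes, and a gene was called below 0.05. The difference from the other accessions is a contrast in the same fit. The difference between codes was fitted with a term for each code in each group. Alternatives were RLE size factors, no filter, organelle genes left out, the code left out, each code alone, the 12 libraries alone, the replicate letter as a block, a transcript-length covariate, limma voom (3.58.1), DESeq2 (1.42.0) and each of the 12 Tsu-0 control and drought libraries left out. No library of another accession was left out. Where an adjusted p is given for a gene without 1 library, it is the highest of those 12 fits, and leaving out other libraries could end the call too. Genes were named as the 15 largest rises and falls among called genes averaging 5 CPM or more, with 1 sign in both codes, up to 6 members per list by p-value, a short set of marker genes such as RD20 and NCED3, the 8 lowest p-values per direction for the difference from other accessions and 4 for that between codes. The members and lists were chosen with earlier results of these data known.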

Additional observations from a re-analysis of the deposited data

Results flagged for a closer look

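Each gene named in the report was checked for a library far from the other 5 of its group. Of 284 groups of 6 checked, 25 stood apart (8.8%). No chance rate can be set beside this share, since the genes were chosen from these same libraries and each group mixes 2 codes. Drought replicate e accounted for 9 of them. In that library SDH2-2 was at 41.7 CPM, AT5G35480 at 555 CPM, KIN2 at 579 CPM, PYR6 at 144 CPM, AT5G24890 at 59.9 CPM, ABI2 at 24.2 CPM and AT4G08910 at 11.2 CPM, each the highest of the drought group. PHR1 at 47.2 CPM and AT1G07970 at 9.41 CPM were the lowest of that group in the same library. Control replicate c accounted for 6, all as the highest control: PDF1.2A at 359 CPM, PDF1.2c at 250 CPM, AT3G15356 at 127 CPM, PDF1.3 at 80.6 CPM, PDF1.2b at 68.2 CPM and FAP2 at 1.61 CPM. Among the other controls, replicate b was highest for BG3 (17.8 CPM) and AT1G23110 (3.46 CPM) and lowest for MYB34 (16.0 CPM). Replicate a was the highest control for EARLI1 (22.3 CPM) and VSP1 (18 CPM), and replicate e for PIP2;5 (11.7 CPM). Among the other drought libraries, replicate a was highest for PR1 (35.0 CPM) and ERD5 (3.27 CPM), replicate c for EXT4 (21.7 CPM), and replicate d for its total count of 110420763. The part of these libraries in the results was not tested beyond leaving each one out.

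For 36 genes the drought effect differed between Tsu-0 and the mean of the other accessions at an adjusted p below 0.05 in edgeR. On the log2 scale the difference was 3.71 for PAP14, 3.08 for PEPC1, 2.52 for AT1G23110 and 2.01 for PS2. It was 1.93 for AT1G08310, 1.90 for AT5G03545 and 1.89 for AT5G20790. MGD3 followed at 1.64, AT1G67600 at 1.63, FAP2 at 1.44, AT4G08910 at 1.16, MGD2 and AT4G01390 at 1.14 and CHIL at 1.12. The difference was 1.09 for GGCT2;1 and PLDP2, 1.04 for SQD2, 0.92 for PHT1;4 and AT2G17280, 0.78 for CRF8 and 0.70 for AT5G24890. It was 0.65 for PAP12 and AT4G33770, 0.60 for ACBP3 and FMN/FHY, 0.58 for GPX6, 0.54 for PYR6 and 0.51 for UGT78D1. The smallest positive ones were PFK7 at 0.48, SQD1 and CBL2 at 0.45, PPa4 at 0.42, AT1G70900 at 0.39 and RNS2 at 0.29. The difference was -0.35 for AT1G07970 and -1.78 for GRP3S.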

How the results depend on the processing

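The number of genes called for drought in Tsu-0 was 1172, and RLE size factors, no filter, the organelle genes left out, limma voom and DESeq2 gave 976 to 1341. It was 779 without the code term (397 higher), 626 with P3ID33 alone (207 lower), 239 with P3ID34 alone (149 higher, 90 lower), 1793 with the 12 libraries alone (961 lower) and 2365 with the length covariate (1085 higher, 1280 lower). Of the 1793 genes called with the 12 libraries alone, 976 were among the 1172. Leaving out 1 of the 12 Tsu-0 libraries gave 718 to 1247 calls, 392 to 677 of them higher and 326 to 570 lower. The number that differed from the other accessions was 36, and 12 with P3ID33 alone, 9 with P3ID34 alone and 21 to 43 with 1 of these 12 left out. Its dependence on single libraries of the other accessions was not tested. It was 73, 2, 20 and 18 against Col-0, Bur-0, Cvi-0 and Sha alone, comparisons chosen after seeing the data. Called phosphate genes numbered 18 to 20 with 1 library left out, and anthocyanin genes 12 to 14, or 6 with P3ID34 alone. Called salicylic acid genes were 4 without the code term, 0 with P3ID34 alone and 4 to 8 with 1 library left out. Called ethylene and jasmonate defence genes were 0 without the code term, 2 with P3ID33 alone, 1 with P3ID34 alone and 0 to 6 with 1 library left out. The sign turned for AT5G03545 against Bur-0 alone (-0.21) and, with P3ID34 alone, for AT5G35480 (-0.41), SDH2-2 (-0.12) and PYR6 (-0.00). The cause was not tested, beyond the fewer samples in the single-code fits.

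Letters a to f recur in both groups, and no source says what they share. The deviations of control and drought libraries of the same letter from their group means had r of -0.0148, -0.31, 0.307, 0.242, 0.0623 and 0.195 for a to f. They were thus positive for d, e and f, the P3ID33 libraries, and mixed in P3ID34, and the letters were not taken to pair the libraries. With the letter as a replicate block 1714 genes were called, 777 higher and 937 lower, and phosphate calls were 17. The search for promoter motifs was not run, since no promoter table was at hand. Genes at low CPM rest on few counts, fewest in the shallowest library, which held 9892562 counts in all.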
